A study of Rattus norvegicus with 32 samples.

Results

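The 9 genes described here mark myelin and the cells that make it: Mbp, Mobp, Mal, Mag, Mog, Cldn11 and Cnp, whose products build or hold the myelin sheath, and Olig1 and Olig2, which encode transcription factors of the oligodendrocyte lineage. They were chosen by symbol, and each had 1 entry among the 32883 genes of both count tables. All 9 were found and all 9 passed the filter on low counts in every comparison. In rat hippocampus at postnatal day (P) 65, the differences between diets were small. In male rats Mbp was lowest in the formerly iron-deficient (FID) group, with a fitted change of -14.1% against the always iron-sufficient (IS) group, and it was 22.2% higher in FID rats whose dams had received choline (FIDch) than in FID rats without it. None of these differences, and none for the other 8 genes, passed an adjusted p of 0.05 in the main analysis, and no female diet group differed from another in any of the 9 at the study's criterion.

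Oligodendrocytes wrap axons in a compacted, lipid-rich membrane that speeds conduction and supplies the axon with metabolites. They arise from precursor cells under the control of Olig2, Olig1, Sox10 and later Myrf, and they carry much of the stainable iron of the brain, since iron-dependent enzymes serve the lipid and cholesterol synthesis that myelin requires. Loss of iron around birth, when rat precursors differentiate, is known to reduce myelin in the young rat brain, and choline is a building block of phosphatidylcholine and sphingomyelin, which are membrane lipids of myelin.

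RNA was sequenced from the hippocampus of 32 Sprague-Dawley rats, with 4 of each sex in each of 4 groups. IS rats came from dams on an iron-sufficient diet, and FID rats from dams given an iron-deficient diet from early gestation to the first postnatal week and iron-sufficient food from then on, so that they were iron-repleted adults. Their choline-treated counterparts are ISch and FIDch, whose dams had choline added to the diet in mid to late gestation. The diet labels call these groups ID and IDch in both sexes, while the library names of males use FID. The study's methods give the timing of the diets and 1 male per litter for males and do not describe the females, whose diets are known here from the labels alone. Males were sequenced in batch I after RNA extraction with the RNAqueous kit and females in batch II with the RNeasy Midi kit, so sex, batch and extraction cannot be told apart, and every comparison of diets was made within a batch. The libraries held 3515806 to 9517503 counts in males and 18439999 to 26616318 in females, and the 9 genes took 0.417% to 0.594% of them in males and 0.398% to 0.604% in females. The lowest count of a member in a male library was 118 (Olig2), against 442 in a female library. The libraries carried the markers of hippocampal neurons, astrocytes, microglia and oligodendrocytes. Choroid plexus genes summed to 9.65 to 406 CPM (counts scaled to a common library size) in the 4 male FID libraries, highest in FID replicate 4, and to at most 9.14 CPM in the other male libraries.

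Levels below are CPM after scaling by the trimmed mean of M-values (TMM) over the 16 libraries of a batch, and a gene was called at the criterion that the study used for RNA, an absolute log2 fold change above 0.2 with an unadjusted p below 0.05. Adjusted p-values are those of Benjamini and Hochberg over all genes tested. Since whole tissue was sequenced, fewer oligodendrocytes and less RNA per oligodendrocyte cannot be told apart. The p-values measure the spread between these rats. No table of transcript lengths was at hand, so levels are not scaled by length. Counts of different genes are therefore not read as relative amounts of transcript. Ratios between genes are compared only between groups of rats.

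**Figure D1:**
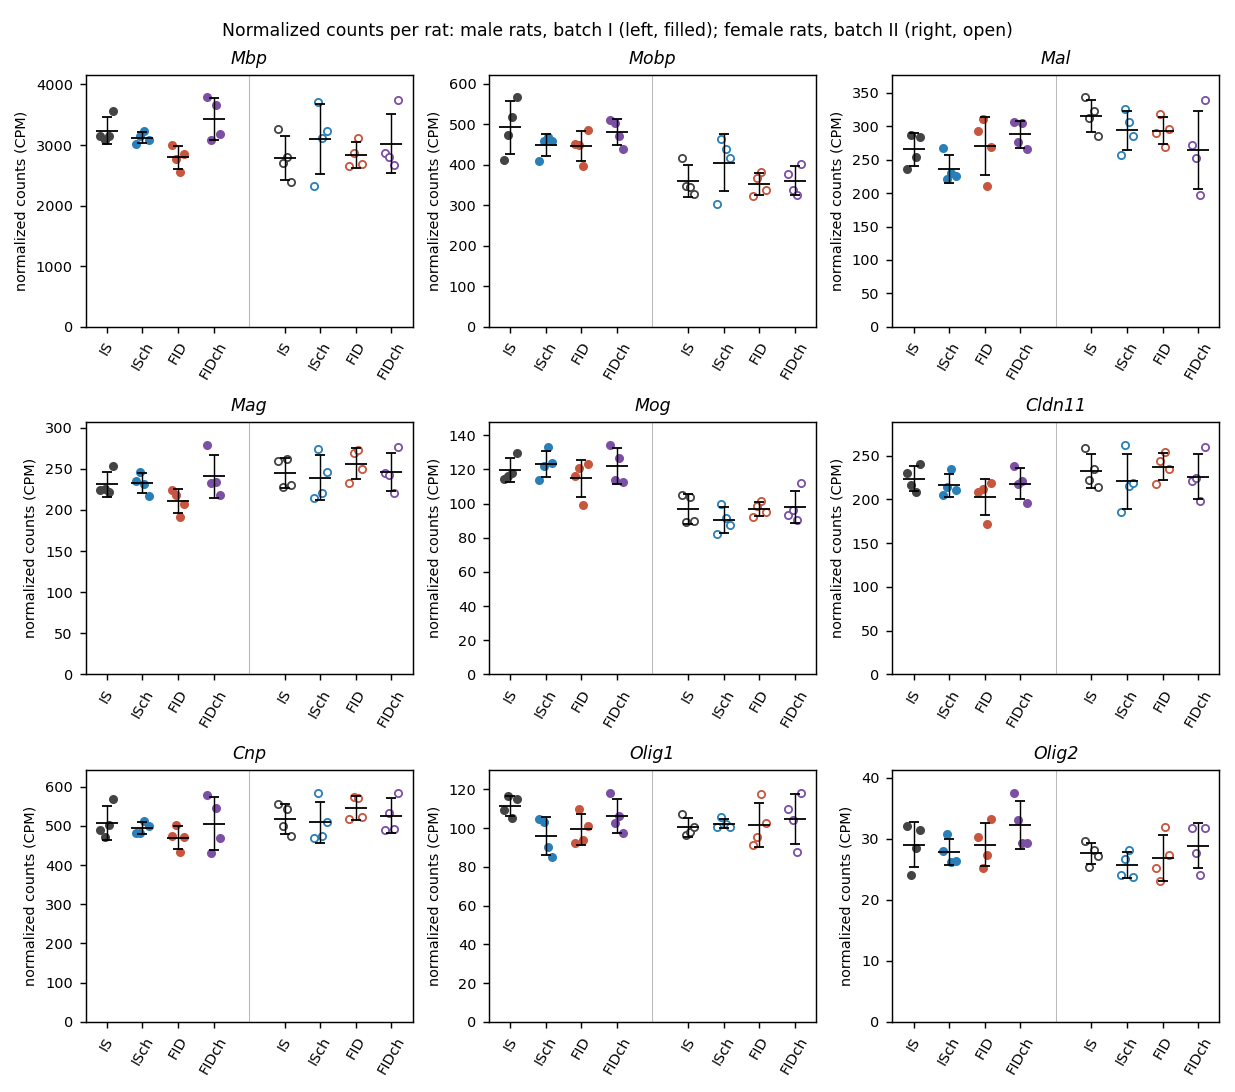
Normalized counts (CPM, axes from 0) of the 9 genes in each rat, males of batch I on the left with filled points and females of batch II on the right with open points. Horizontal marks and bars give the mean and SD of 4 rats. Male FID rats lie below all male IS and all male FIDch rats for Mbp, while the diet groups overlap for Mog, Cldn11 and Cnp.

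Mal, Mobp and Olig2 are shown as examples, with the 250 bases before their annotated start. Mal and Olig2 differed at the criterion between the male choline groups, and Mobp had an iron by choline difference in males. Other members also met the criterion, among them Mbp, whose windows are not shown. The sequences are RefSeq's, on rat assembly GRCr8, while the submitters' processing notes name Rnor_6.0 for the counts. RefSeq's promoter table held 7 of the 9 members. Capitals mark matches, on either strand, to a SOX core (ACAAAG or ACAATG), a MYRF core (CTGGCAC or CTGGTAC) or an E-box read by OLIG factors (CAGCTG); no matches overlap in these windows.
Mal (minus strand, chr3:135341424-135341673): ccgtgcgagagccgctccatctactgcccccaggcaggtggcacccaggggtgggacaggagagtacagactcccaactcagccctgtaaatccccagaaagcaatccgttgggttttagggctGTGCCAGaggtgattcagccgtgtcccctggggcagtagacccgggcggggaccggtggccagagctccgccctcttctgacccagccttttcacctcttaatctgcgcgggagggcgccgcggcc
Mobp (plus strand, chr8:128746982-128747231): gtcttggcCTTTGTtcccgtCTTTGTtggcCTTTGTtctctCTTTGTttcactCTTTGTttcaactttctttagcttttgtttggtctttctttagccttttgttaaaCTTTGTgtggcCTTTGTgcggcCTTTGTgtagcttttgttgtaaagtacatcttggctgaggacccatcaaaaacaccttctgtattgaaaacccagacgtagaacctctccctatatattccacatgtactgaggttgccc
Olig2 (plus strand, chr11:43961335-43961584): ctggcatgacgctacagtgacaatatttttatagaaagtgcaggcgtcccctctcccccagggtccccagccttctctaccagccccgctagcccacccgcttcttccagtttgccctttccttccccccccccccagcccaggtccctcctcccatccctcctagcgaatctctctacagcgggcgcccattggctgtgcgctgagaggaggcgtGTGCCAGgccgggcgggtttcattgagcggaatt

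The Mobp window held 8 matches to the SOX core, all read as CTTTGT on the plus strand, while Mal and Olig2 held none and 1 match each to the MYRF core. Cnp, Mag and Cldn11 also held 1 MYRF core match each, Cnp and Mag 1 SOX core match, and Cnp 1 E-box. Mbp had 2 windows in the table, 1 of them with no match and the other with 3 SOX core matches and 1 E-box. Of 33469 RefSeq promoter windows of the same length, 25.3% held a SOX core, 5.48% a MYRF core and 12% an E-box. A match is a run of letters and was not tested as a binding site.

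Mbp encodes myelin basic protein, which binds the inner faces of the membrane together and is required for compaction. In males its level was 3148, 3085, 3157 and 3567 CPM in the 4 IS rats, with a mean of 3239 ± 221 (SD, n = 4). In FID rats it was 3006, 2769, 2554 and 2851 CPM, with a mean of 2795 ± 188. The highest FID rat lay below the lowest IS rat. Mbp was the only member called in FID against IS (log2 fold change -0.22, SE 0.065, 95% interval -0.36 to -0.078, edgeR p = 0.00523, adjusted p = 0.786; exact two-sided permutation p = 0.029 over the 8 rats, the smallest that 4 against 4 allows). Of all 13851 genes tested 4.62% were called, 2.28% as lower, and 3.6% had groups that did not overlap. The call was lost without IS replicate 4 and without FID replicate 3, the highest and the lowest of the 8 rats.

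FIDch males had Mbp levels of 3785, 3076, 3663 and 3189.8 CPM, with a mean of 3429 ± 348 (SD, n = 4). Every FIDch rat lay above every FID rat, and the groups FIDch and IS overlapped. Mbp was called higher in FIDch than in FID (log2 fold change 0.29, SE 0.072, 95% interval 0.14 to 0.44, edgeR p = 0.00137, adjusted p = 0.0712; exact permutation p = 0.029), a comparison in which 13% of 13945 genes were called, 5.74% as higher, and 10.6% did not overlap. Of the 17 alternatives here, the fit without FIDch replicate 2 is the same as that without ISch 1, ISch 2 and FIDch 2. All kept the call, with an adjusted p of 0.0136 to 0.231. It passed an adjusted p of 0.05 with DESeq2 (adjusted p = 0.0136), with edgeR's likelihood ratio test (0.0287), with all 4 diets in one edgeR fit (0.0258) with all genes of at least 1 count (0.0235) and without FIDch replicate 2 (0.048). Against ISch, FIDch had an Mbp log2 fold change of 0.14 (95% interval 0.012 to 0.26), under the criterion's fold, with an edgeR adjusted p of 0.327. Male ISch rats had 3021, 3153, 3228 and 3076 CPM, the tightest of the 8 groups, and no call against IS.

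The change with choline in Mbp differed at the criterion between iron backgrounds in males. The FIDch over FID change exceeded the ISch over IS change (log2 fold change 0.36, SE 0.092, 95% interval 0.17 to 0.55, edgeR adjusted p = 0.145), where 14.4% of 14314 genes were called, 6.84% as higher. The call was kept in all 24 alternatives, with an adjusted p of 0.0563 to 0.345. Within each library, the log2 ratio of Mbp to the geometric mean of the other 8 members was 4.11 to 4.15 in IS, 3.95 to 4.09 in FID, 4.12 to 4.19 in ISch and 4.08 to 4.28 in FIDch males. Mbp was thus low in male FID rats also relative to the other 8 genes of the same libraries, with no overlap with IS and an overlap with FIDch by 1 rat each; this ratio was taken after the values were seen and has no test.

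Female rats had no Mbp call. Their Mbp levels were 3268, 2704, 2808 and 2388 CPM in IS and 2653, 2872, 3114 and 2687 CPM in FID. In ISch they were 2324, 3709.7, 3116 and 3229.8 CPM, and in FIDch 2873, 2801, 2664 and 3736 CPM. All 4 groups overlapped, and the spread within ISch alone spanned nearly the whole range of the batch. The FIDch over FID log2 fold change was 0.093 (95% interval -0.12 to 0.31), and the FID over IS value was 0.019 (-0.15 to 0.19). The male minus female difference did not reach the criterion for FID over IS (log2 fold change -0.22, SE 0.11, 95% interval -0.45 to 0.0070, edgeR adjusted p = 0.605; 7.64% of 15138 genes called) or for FIDch over FID (log2 fold change 0.22, SE 0.13, 95% interval -0.067 to 0.50, edgeR adjusted p = 0.409; 17.7% of 15143 genes called, 10.3% as higher).

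Mobp encodes a small basic protein of compact myelin that is found late in sheath formation. Male levels were 412, 473, 518 and 566 CPM in IS and 408, 458, 469 and 459.5 CPM in ISch. They were 451, 449, 398 and 486 CPM in FID and 510.0, 504, 470.1 and 439 CPM in FIDch, and all 4 groups overlapped. No pair of male diets was called for Mobp. Its iron by choline difference was at the criterion (log2 fold change 0.25, SE 0.12, 95% interval 0.0044 to 0.50, edgeR adjusted p = 0.316), but was lost in 13 of 24 alternatives, among them the filter of 1 CPM in 4 libraries. For this difference 14.4% of 14314 genes were called, 6.84% as higher. In females, Mobp was 417, 348, 345 and 328 CPM in IS and 303, 463, 440.2 and 416 CPM in ISch. ISch replicate 1 was the lowest rat of the batch and the other 3 ISch rats were among the highest, and the comparison was not called (log2 fold change 0.17, SE 0.12, 95% interval -0.086 to 0.43, edgeR adjusted p = 0.514; 10.3% of 14466 genes called and 10.1% without overlap). Without ISch replicate 1 the log2 fold change was 0.29 with an edgeR adjusted p of 0.0484. Female FID and FIDch rats had 323 to 383 and 326 to 402 CPM.

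Mal encodes a proteolipid that sorts cargo into myelin membrane. In males it was 268, 221, 229.7 and 226 CPM in ISch and 306, 276, 304 and 266 CPM in FIDch. Only ISch replicate 1 reached into the FIDch range. Mal was called higher in FIDch than in ISch (log2 fold change 0.29, SE 0.068, 95% interval 0.14 to 0.44, edgeR p = 0.000791, adjusted p = 0.155; exact permutation p = 0.057), with 8.12% of 13958 genes called, 3.09% as higher, and 7.65% without overlap. All 17 alternatives kept the call, and 3 gave an adjusted p under 0.05: DESeq2 (0.0214), edgeR's likelihood ratio test (0.0286) and all genes of at least 1 count (0.0492). IS males had 236, 287, 253 and 284 CPM, and ISch against IS missed the criterion's fold (log2 fold change -0.17, adjusted p = 0.472 by edgeR). FID males spread from 210.0 to 310.2 CPM, the widest of the male groups.

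In females Mal was 343, 312, 323 and 286 CPM in IS, 258, 326, 306 and 286 CPM in ISch and 290.2, 318, 269.5 and 295 CPM in FID. FIDch females had 271, 252, 197 and 339 CPM, with both the lowest and nearly the highest rat of the batch in that group. FIDch against IS was not called (log2 fold change -0.25, SE 0.13, 95% interval -0.55 to 0.042, edgeR adjusted p = 0.456; 8.98% of 14662 genes called and 7.83% without overlap). The FIDch over IS change differed between the batches at the criterion, male minus female (log2 fold change 0.37, SE 0.17, 95% interval 0.018 to 0.72, edgeR adjusted p = 0.333; 12.9% of 15177 genes called, 6.2% as higher), and this was lost in 10 of 24 alternatives.

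Mag encodes a glycoprotein of the innermost myelin layer that faces the axon. Male levels were 224, 225, 222 and 254 CPM in IS and 225, 218, 192 and 207 CPM in FID. They were 235, 247, 232 and 217 CPM in ISch and 279, 232, 234 and 218 CPM in FIDch. FID rats were lowest on average, with 1 FID rat inside the IS and FIDch ranges. FIDch against FID came close to the criterion without meeting its fold (log2 fold change 0.19, SE 0.077, 95% interval 0.024 to 0.36, edgeR adjusted p = 0.225), and met it when TMM was left out (log2 fold change 0.20). Female levels were 228 to 262 CPM in IS, 215 to 275 in ISch, 233 to 273 in FID and 221 to 276 in FIDch, and no pair was called. Mag was the only member whose FIDch over FID change differed between batches at the criterion (log2 fold change 0.27, SE 0.12, 95% interval 0.022 to 0.51, edgeR adjusted p = 0.219), which was lost in 10 of 24 alternatives, among them the fit without TMM. In that comparison 17.7% of all genes were called. Without female FIDch replicate 4, 5 members met the criterion, with 19.5% of all genes called, and without any 1 of 9 other libraries no member did, with 14.7% to 18.1% of all genes called.

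Mog, Cldn11 and Cnp were not called in any comparison. Mog, a glycoprotein of the outermost myelin surface, had male levels of 114 to 129.7 CPM in IS, 114 to 133 in ISch, 99.3 to 123 in FID and 112 to 134 in FIDch. Cldn11, the claudin of the tight junctions between myelin wraps, was at 209 to 241 CPM in IS, 205 to 235 in ISch, 172 to 219 in FID and 196 to 238 in FIDch males. Cnp, an enzyme of non-compact myelin, was at 471 to 569 CPM in IS, 481 to 513 in ISch, 433 to 503 in FID and 431 to 578 in FIDch males. For each of the 3 genes FID replicate 3 was below all 4 IS rats, and the other 3 FID rats lay among them or close by. The 95% intervals of male FIDch over FID were -0.086 to 0.25 for Mog, -0.072 to 0.28 for Cldn11 and -0.076 to 0.28 for Cnp, so that log2 changes above 0.28 lie outside all 3. In females Mog was at 82.2 to 112 CPM, Cldn11 at 186 to 262 CPM and Cnp at 470.1 to 585 CPM over the 16 rats, and their diet groups overlapped in every pair.

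Olig1, needed for oligodendrocyte maturation and repair, was the member called in male ISch against IS. Its level was 109, 117, 106 and 115 CPM in IS and 105, 103, 90.2 and 85.2 CPM in ISch. The highest ISch rat lay just below the lowest IS rat (log2 fold change -0.23, SE 0.077, 95% interval -0.39 to -0.061, edgeR p = 0.0113, adjusted p = 0.384; exact permutation p = 0.029), in a comparison that called 8.06% of 13956 genes, 3.54% as lower, and left 6.13% without overlap. The call was lost without ISch replicate 3 and without ISch replicate 4. FID males had 92.4, 109.9, 94.2 and 101 CPM and were lower than IS without meeting the criterion's fold (log2 fold change -0.17, SE 0.070, 95% interval -0.33 to -0.021, edgeR adjusted p = 0.786). FIDch males had 118, 103, 106 and 97.8 CPM, and the iron by choline difference met the criterion (log2 fold change 0.33, SE 0.11, 95% interval 0.10 to 0.56, edgeR adjusted p = 0.205) in the main fit and in all 24 alternatives. For this difference 14.4% of 14314 genes were called, 6.84% as higher.

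In females Olig1 was 107, 96.3, 97.8 and 101 CPM in IS and 101, 106, 102 and 101 CPM in ISch, which overlapped. Its ISch over IS change was lower in males than in females at the criterion (log2 fold change -0.25, SE 0.092, 95% interval -0.44 to -0.055, edgeR adjusted p = 0.199; 14.2% of 15141 genes called, 6.84% as lower), and this was lost in 1 of 24 alternatives, without male ISch replicate 4. FID and FIDch females had 91.6 to 117 and 87.8 to 118 CPM.

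Olig2, which sets oligodendrocyte fate and is also made by precursors, had the lowest counts of the members. ISch males had 27.9, 30.9, 26.2 and 26.3 CPM and FIDch males 37.6, 33.0, 29.2 and 29.3 CPM, and the groups overlapped. FIDch against ISch was at the criterion (log2 fold change 0.21, SE 0.10, 95% interval 0.0085 to 0.42, edgeR p = 0.0424, adjusted p = 0.348; exact permutation p = 0.11), but was lost in 7 of 17 alternatives, DESeq2 among them. In that comparison 8.12% of 13958 genes were called, 3.09% as higher. IS and FID males had 24.1 to 32.1 and 25.2 to 33.3 CPM. In females the groups ran from 23.1 to 31.9 CPM, and none was called.

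**Figure D2:**
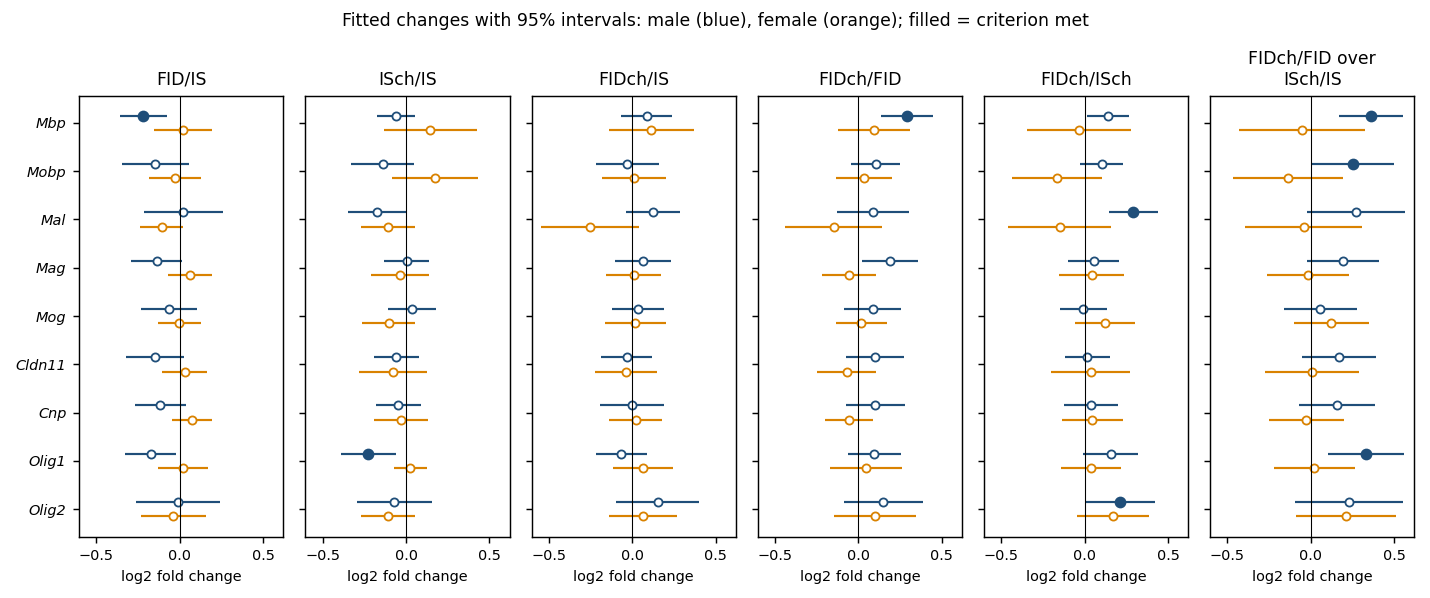
Fitted log2 fold changes of the 9 genes with 95% intervals, males in blue and females in orange, 4 rats per group; the last panel is the FIDch over FID change minus the ISch over IS change. Filled points met the criterion: Mbp in FID/IS, FIDch/FID and the last panel, Olig1 in ISch/IS and the last panel, Mal and Olig2 in FIDch/ISch, and Mobp in the last panel, all in males.

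Across the comparisons, the members' directions can be set beside all genes. In male FID against IS, 8 of 9 members had negative and 1 positive values, with a median log2 fold change of -0.14 against -0.0097 over all genes. Genes of other cells had medians below 0 in the same comparison, at -0.11 for 9 astrocyte genes, 3 of them positive, and -0.087 for 8 microglial genes, 0 of them positive, and their part in the members' values was not tested. Without IS replicate 4 the median was -0.074 and without FID replicate 3 it was -0.079. In male FIDch against FID all 9 were positive with a median of 0.10, against a median of 0.00 to 2 decimals over all genes, and the median was 0.062 with 8 positive without FID replicate 3 and 0.065 with 9 positive without FIDch replicate 1. FIDch against ISch males gave 8 positive and 1 negative, with a median of 0.10. Without FIDch replicate 1 these were 5 and 4 (median 0.079), and without ISch replicate 1 the median was 0.060. ISch against IS gave 2 positive and 7 negative, with a median of -0.061, and of -0.024 without IS replicate 4. FIDch against IS gave 5 positive and 4 negative, with a median of 0.034 and no call (6.12% of 13693 genes called and 5.4% without overlap). Its sign turned without FIDch replicate 1 (median -0.017, 3 positive and 6 negative), and without IS replicate 4 the median was 0.072 (8 positive and 1 negative). At an adjusted p under 0.05, where 0 members passed, the share of all genes was 0% in male FID against IS, 0.208% in ISch against IS, 0.131% in FIDch against IS, 1.28% in FIDch against FID, 0.043% in FIDch against ISch and 0.00699% in the iron by choline difference. These comparisons share groups, and the 9 genes vary together, so the counts of signs are not independent observations.

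In females the medians were close to 0. They were 0.017 for FID against IS (6.47% of 14632 genes called and 6.56% without overlap), -0.037 for ISch against IS and 0.019 for FIDch against IS. For FIDch against FID the median was 0.018 (12.7% of 14680 genes called and 11.9% without overlap), for FIDch against ISch 0.037 (4.57% of 14521 called and 5.02% without overlap) and for the iron by choline difference -0.020 (7.33% of 14975). Each of the 6 medians changed sign when some single library was left out, with ranges of -0.036 to 0.054, -0.11 to 0.0075, -0.054 to 0.058, -0.051 to 0.055, -0.030 to 0.12 and -0.085 to 0.065 in the same order. No member was called in any of the 6. At an adjusted p under 0.05, 0 members passed, against 0.191%, 2.54%, 0.907%, 2.28%, 0.00689% and 0.00668% of all genes in the same order, and in the batch differences 0 members passed against 0.0396%, 1.28%, 0.362% and 2.88%, for FID over IS, ISch over IS, FIDch over IS and FIDch over FID. The lowest unadjusted edgeR p of a member in these female comparisons was 0.0858, and 0 were under 0.05, while DESeq2 called 0 members at the criterion in each of the 6.

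The order of the diet means was not the same for all members. FID was the lowest of the 4 male groups for 6 members (Mbp, Mog, Mag, Mobp, Cnp and Cldn11) and ISch for Mal, Olig1 and Olig2. The highest male group was IS for 4 members, FIDch for 4 and ISch for Mog. Highest and lowest male means differed by 7.26% for Mog to 22.7% for Mbp. In females ISch was lowest for 5 members, IS for 2, and FID and FIDch for 1 each, and the means differed by 4.43% for Olig1 to 19.3% for Mal. No neighbours in these orders that were compared met the criterion; FID and ISch were not compared with each other.

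Differences between rats of the same group were shared by the members. In males, IS replicate 4 and FIDch replicate 1 had all 9 genes above their own group mean, and FID replicate 3 and FIDch replicate 4 had none. In females this held for 3 libraries (IS 1, ISch 2 and FIDch 4, all 9 above) and 4 libraries (IS 2, ISch 1, FID 1 and FIDch 3, none above). The mean log2 deviation of the 9 genes from the group mean was -0.163 in male FID replicate 3 and 0.214 in female FIDch replicate 4. The 2 male libraries on which the Mbp call in FID against IS rested, IS replicate 4 and FID replicate 3, were thus high and low in all 9 genes.

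**Figure D3:**
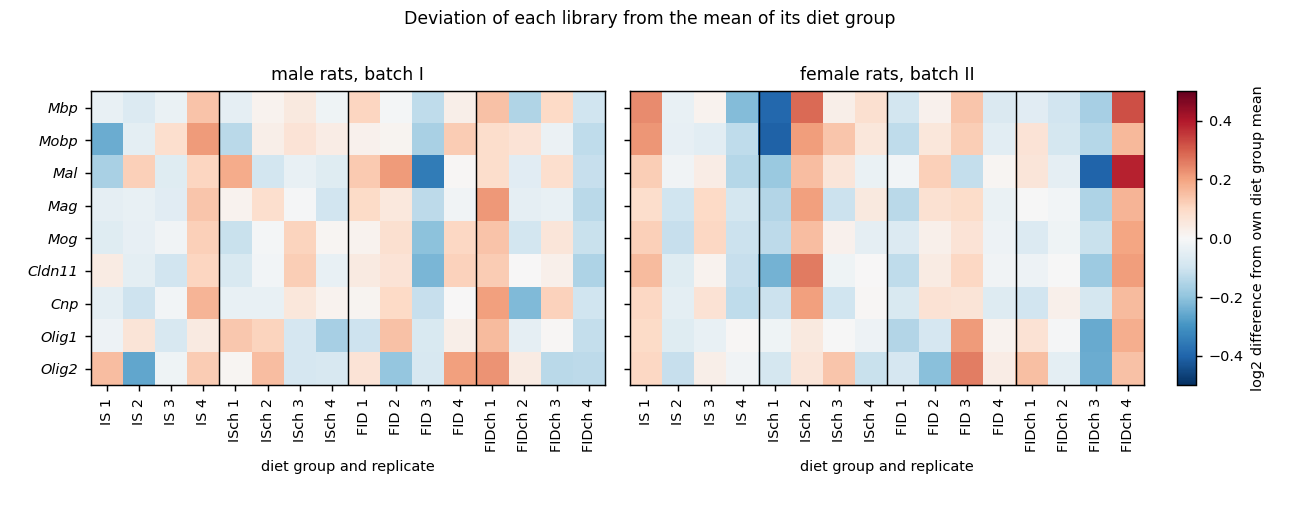
Log2 difference of each library from the mean of its own diet group, for the 9 genes (rows) and the 16 libraries of each batch (columns), red above and blue below. Whole columns share a colour, such as male FID 3 (blue) and female FIDch 4 (red), with weaker agreement for Olig1 and Olig2.

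After the group means were subtracted, the correlation of a member with the mean of the other 8 over the 16 libraries of a batch was 0.97 for Cldn11, 0.917 for Mbp and 0.916 for Mog in females, and 0.867 for Mog, 0.865 for Mag and 0.841 for Mbp in males. It was lowest for Olig2, at 0.365 in males and 0.606 in females, followed by Olig1 at 0.457 and 0.705. Over the 36 pairs of members the correlation was -0.0886 to 0.897 in males, with a median of 0.536 and Mal with Olig2 as the only negative pair, and 0.292 to 0.947 in females, with a median of 0.711. These are descriptions: the points share library, depth and dissection.

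Of 13852 other genes ranked by the lower of their correlations in the 2 batches with the members' mean, the first 10 included Pllp, Dnajc9, Fa2h, Fth1, Lrrc10b, LOC100362027, Jpt2, Pmp22 and Elovl1. Pllp encodes plasmolipin, a myelin proteolipid (r = 0.791 in males and 0.79 in females over 16 libraries each). Fa2h, which makes the hydroxylated fatty acids of myelin lipids, had 0.805 and 0.756, and Fth1, the ferritin heavy chain that stores iron, had 0.724 and 0.884. Without TMM 8 of these 10 stayed among the first 10, and without subtracting the group means 4 did.

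Other genes of the lineage were read from fixed lists. Of 22 other myelin protein genes, 0 were called higher and 2 lower in male FID against IS (median log2 fold change 0.0026), 4 and 0 in ISch against IS, 2 and 3 in FIDch against IS, 2 and 3 in FIDch against FID (median -0.048) and 0 and 5 in FIDch against ISch (median -0.083). Over all genes, 324 were higher and 316 lower of 13851 in FID against IS, and 631 and 494 of 13956 in ISch against IS. In FIDch against IS they were 398 and 440 of 13693, and in FIDch against FID 801 and 1009 of 13945. In FIDch against ISch they were 431 and 702 of 13958. In the last 2 comparisons the median of this list was below 0 and that of the members above 0.

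Bcas1, which marks myelinating oligodendrocytes, had the same male pattern as Mbp at the criterion. It was 129 to 164 CPM in IS, 116 to 129 in FID and 135 to 177 in FIDch. FID did not overlap with either group, and Bcas1 was called lower in FID than in IS (log2 fold change -0.21, adjusted p = 0.786 by edgeR) and higher in FIDch than in FID (log2 fold change 0.35, SE 0.076, 95% interval 0.18 to 0.51, edgeR adjusted p = 0.0484). The FIDch over FID call was kept in all 17 alternatives, and the adjusted p stayed under 0.05 in 6 of them. The 17 count the fit without FIDch replicate 2 also as the fit without ISch 1, ISch 2 and FIDch 2. Hapln2, a link protein at nodes of Ranvier, was also lower in FID than in IS at the criterion (log2 fold change -0.28, adjusted p = 0.786 by edgeR).

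Opalin, a late oligodendrocyte membrane protein, was 136 to 161 CPM in male ISch and 83.0 to 125 in IS (log2 fold change 0.57, adjusted p = 0.114 by edgeR), opposite in direction to Olig1 in the same rats. Ermn, which organizes the cytoskeleton of late oligodendrocytes, was higher in ISch than in IS (log2 fold change 0.21, adjusted p = 0.455 by edgeR) and lower in FIDch than in ISch (log2 fold change -0.30, adjusted p = 0.126 by edgeR). Car2, a carbonic anhydrase of oligodendrocytes, was lower in FIDch than in ISch (log2 fold change -0.23, adjusted p = 0.191 by edgeR). Omg (log2 fold change -0.24, adjusted p = 0.344 by edgeR) and Aspa, which frees acetate for lipid synthesis (log2 fold change -0.36, adjusted p = 0.407 by edgeR), were lower in FIDch than in IS.

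In females 1 gene of this list was called higher and 1 lower in FID against IS, 1 and 0 in ISch against IS, 3 and 0 in FIDch against IS and in FIDch against FID, and 1 and 0 in FIDch against ISch, with medians of 0.015 to 0.034. Ndrg1, whose loss causes a demyelinating neuropathy, was 93.0 to 105 CPM in IS and 101 to 109.9 in FID females, and 118 to 135 in ISch and 115 to 135 in FIDch. It was higher in ISch than in IS (log2 fold change 0.35, adjusted p = 0.0142 by edgeR), in FIDch than in IS (log2 fold change 0.38, adjusted p = 0.0224 by edgeR) and in FIDch than in FID (log2 fold change 0.26, adjusted p = 0.0407 by edgeR). Male Ndrg1 groups overlapped, with a FIDch over FID log2 fold change of -0.11. Anln, a septin-binding protein found in myelin, was 52.5 to 56.7 CPM in female IS and 43.1 to 46.1 in FID (log2 fold change -0.30, adjusted p = 0.0218 by edgeR).

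Among 12 other transcription factors of the lineage, 0 to 2 were called in either direction in every pair. In male FIDch against FID, 1 was called higher and 2 lower (median 0.061): St18 was lower (log2 fold change -0.33, adjusted p = 0.0604 by edgeR), as was Id4, an inhibitor of oligodendrocyte differentiation (log2 fold change -0.28, adjusted p = 0.209 by edgeR). Id4 was higher in female ISch than IS (log2 fold change 0.28, adjusted p = 0.0524 by edgeR) and higher in FIDch than IS (log2 fold change 0.26, adjusted p = 0.218 by edgeR).

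Of the precursor genes, in males 2 of 11 were called higher and 0 lower in ISch against IS and in FIDch against IS, and 1 and 1 in FIDch against FID. Cspg4, the NG2 proteoglycan of precursors, was 31.0 to 38.6 CPM in male FIDch and 24.7 to 29.4 in FID (log2 fold change 0.40, adjusted p = 0.0549 by edgeR). Pcdh15 was higher in ISch than in IS (log2 fold change 0.86, adjusted p = 0.367 by edgeR), and Gpr17, a receptor of committed precursors, higher in FIDch than in ISch (log2 fold change 0.21, adjusted p = 0.235 by edgeR). In females, 0 were called higher and 3 of 12 lower in FIDch against IS (median -0.21), 0 and 4 of 11 in FIDch against FID (median -0.20) and 0 and 2 of 11 in ISch against IS. Over all genes, 707 of 14662, 1038 of 14680 and 745 of 14466 were called lower, in the same order. Enpp6, a marker of newly forming oligodendrocytes, was 5.98 to 6.38 CPM in female FIDch and 8.73 to 9.42 in IS (log2 fold change -0.55, adjusted p = 0.0177 by edgeR). C1ql1 was lower in female ISch than in IS (log2 fold change -0.43, adjusted p = 0.024 by edgeR), and Cspg4 was lower in female FIDch than in FID (log2 fold change -0.21, adjusted p = 0.124 by edgeR). In the male minus female difference of FIDch over IS, 4 of 11 precursor genes were called higher and 0 lower (median 0.37), and in that of FIDch over FID 4 and 0 (median 0.21), with Cspg4 the gene at an adjusted p under 0.05 (log2 fold change 0.63, adjusted p = 0.00896 by edgeR).

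Of 22 genes of myelin lipid synthesis, 0 to 1 were called higher and 0 to 1 lower in every male pair. Srebf2, which drives cholesterol synthesis, was higher in male FIDch than in FID (log2 fold change 0.24, adjusted p = 0.114 by edgeR) and than in ISch (log2 fold change 0.21, adjusted p = 0.171 by edgeR). In females 1 was called higher and 3 lower in FIDch against FID, the higher being Ugt8, which makes galactocerebroside (log2 fold change 0.21, adjusted p = 0.0535 by edgeR), with Srebf1 among the lower (log2 fold change -0.27, adjusted p = 0.0754 by edgeR). Of 7 oligodendrocyte iron genes tested in males, Tfrc, the transferrin receptor, was higher in FID than in IS (log2 fold change 0.21, adjusted p = 0.786 by edgeR) and lower in FIDch than in FID (log2 fold change -0.26, adjusted p = 0.0961 by edgeR). In females 2 of 8 were called higher in ISch against IS and 2 in FIDch against IS (median 0.18). These 2 were Tfrc (log2 fold change 0.35, adjusted p = 0.0348 by edgeR) and Tf, transferrin, made by oligodendrocytes (log2 fold change 0.32, adjusted p = 0.0445 by edgeR), at 536 to 594 CPM in FIDch and 415 to 499.6 in IS.

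**Figure D4:**
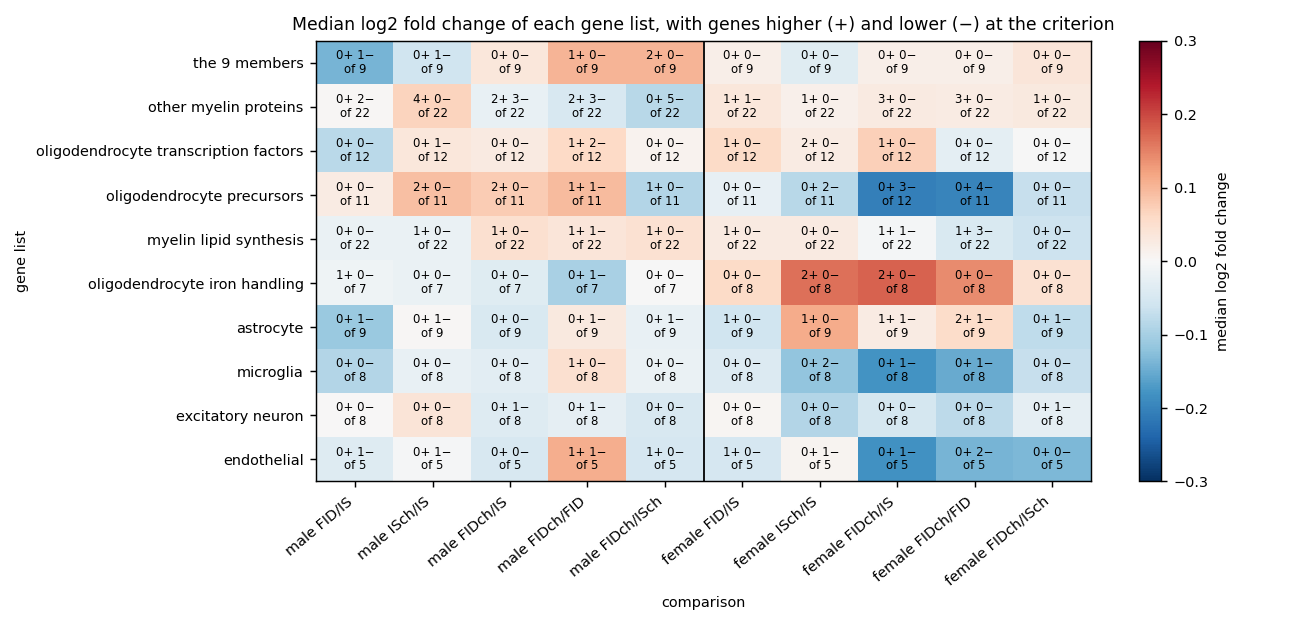
Median log2 fold change of each gene list (colour) in the 5 diet pairs of each batch, with the number of genes called higher and lower and the number tested in each cell. The median of the 9 members is positive in male FIDch/FID (all 9 positive) and FIDch/ISch (8 of 9), where the median of the other myelin proteins is slightly negative; precursor genes are lowest in female FIDch/IS and FIDch/FID.

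Genes of other cells were called in some of the same comparisons. In male FID against IS, 1 astrocyte gene of 9 was lower (Aldh1l1, log2 fold change -0.23, adjusted p = 0.786 by edgeR), 1 endothelial gene of 5 was lower (Cldn5, log2 fold change -0.29, adjusted p = 0.786 by edgeR) and 0 of 8 microglial and 0 of 8 excitatory neuron genes were called. Ttr, the transthyretin made by choroid plexus, had a mean of 93.5 CPM in male FID and 1.66 in IS (log2 fold change 5.80, adjusted p = 0.786 by edgeR). FID replicate 4 carried most of it, with a choroid plexus sum of 406 CPM against 9.65 to 21.2 in the other 3 FID rats. Without that library the Ttr log2 fold change was 2.28 (adjusted p = 0.692 by edgeR), and the Mbp call was kept. The other 3 FID rats still had more choroid plexus RNA than any other male, at most 9.14 CPM. The part of choroid plexus RNA in the Mbp values was not tested. In male ISch against IS, where Olig1 was lower, Cldn5 (log2 fold change -0.31, adjusted p = 0.376 by edgeR) and Aldh1l1 (log2 fold change -0.23, adjusted p = 0.455 by edgeR) were lower too. In male FIDch against FID, Snap25 was lower (log2 fold change -0.24, adjusted p = 0.082 by edgeR) as 1 of 8 excitatory neuron genes, Aqp4 was lower as 1 of 9 astrocyte genes (log2 fold change -0.27, adjusted p = 0.144 by edgeR), and C1qb was higher as 1 of 8 microglial genes (log2 fold change 0.24, adjusted p = 0.274 by edgeR). Of 6 thalamic genes tested 1 was higher and 1 lower in that comparison, and of 6 striatal genes 0 were higher and 1 lower. Of 5 endothelial genes 1 was higher and 1 lower, and of 2 choroid plexus genes tested 1 was lower, which was Ttr (median -3.40). The Ttr log2 fold change was -6.25, and -2.70 without FID replicate 4.

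Of 6 peripheral myelin genes 3 were tested in the male pairs and 0 were called there, and Ncmap was at 0 in every library, which allows up to 3 counts in each. In female ISch against IS 2 were called higher, among them Egr2, a Schwann cell factor that is also an activity-induced gene of neurons (log2 fold change 1.33, adjusted p = 0.000324 by edgeR). In the same comparison Aldh1l1 was higher as 1 of 9 astrocyte genes (log2 fold change 0.36, adjusted p = 0.0215 by edgeR) and Itm2a lower as 1 of 5 endothelial genes (log2 fold change -0.39, adjusted p = 0.0257 by edgeR). In female FIDch against FID, 2 of 9 astrocyte genes were called higher, Aqp4 (log2 fold change 0.30, adjusted p = 0.0239 by edgeR) and Aldh1l1 (log2 fold change 0.36, adjusted p = 0.0346 by edgeR), and 1 lower. Of 6 thalamic genes 1 was higher and 2 lower, among them Slc17a6 (log2 fold change -0.71, adjusted p = 0.0145 by edgeR), and Cx3cr1 was lower as 1 of 8 microglial genes (log2 fold change -0.32, adjusted p = 0.0926 by edgeR). The part of these other cells in the members' values was not tested.

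Other list genes differed between the male and female batches at an adjusted p under 0.05. For ISch over IS, male minus female, these were Opalin (log2 fold change 0.65, adjusted p = 0.0441 by edgeR), Ndrg1 (log2 fold change -0.45, adjusted p = 0.0282 by edgeR) and Aldh1l1 (log2 fold change -0.59, adjusted p = 0.0121 by edgeR). For FIDch over IS it was Omg (log2 fold change -0.42, adjusted p = 0.0257 by edgeR). For FIDch over FID, Srebf2 (log2 fold change 0.39, adjusted p = 0.0382 by edgeR) and Srebf1 (log2 fold change 0.47, adjusted p = 0.0277 by edgeR) had positive differences. Omg (log2 fold change -0.43, adjusted p = 0.0236 by edgeR), Aspa (log2 fold change -0.57, adjusted p = 0.0237 by edgeR), Car2 (log2 fold change -0.26, adjusted p = 0.0461 by edgeR), Anln (log2 fold change -0.59, adjusted p = 0.0497 by edgeR), Tfrc (log2 fold change -0.41, adjusted p = 0.026 by edgeR) and Aqp4 (log2 fold change -0.55, adjusted p = 0.0154 by edgeR) had negative ones.

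In RefSeq's annotation, Mobp, Cnp, Cldn11, Olig1 and Olig2 overlap no other gene, and Olig1 and Olig2 are neighbours. Mbp overlaps 1 long noncoding RNA gene, Mag 2 and Mal 1, and Mog overlaps the protein-coding Zfp57. Whether the counting used strand is not given in the sources used here, so reads from these partners could not be told apart from those of the members.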

How the data were processed

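RNA-seq of hippocampus at postnatal day 65 was read from 2 deposited tables, 1 for the 16 male libraries of batch I and 1 for the 16 female libraries of batch II. The deposited values are raw read counts per gene that the authors made. The submitters' processing notes name FastQC, Trimmomatic, HISAT2, Subread and featureCounts with build Rnor_6.0; strand setting, treatment of multi-mapped reads and annotation release are not given in the sources used here.

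Each diet pair was fitted by edgeR 4.0.16 (R 4.3.3; quasi-likelihood, TMM scaling, filterByExpr) on all genes of its 8 libraries. The iron by choline difference used the 16 libraries of a batch, and the difference between batches the 16 libraries of the diets concerned. Single genes were also compared by exact permutation over 70 splits. The script was tested on simulated counts. Alternatives were the likelihood ratio test, DESeq2 1.42.0, other scalings, other filters, a single fit of the 4 diets, a replicate block, adjusted p as the rule, leaving out each library, and leaving out male ISch 1, ISch 2 and FIDch 2 together. Their library names have a form unlike those of the other males, and ISch 1 and ISch 2 share a prefix. What it stands for is not given in the sources used here. Where a comparison holds FIDch 2 but no ISch library, the last alternative is the same fit as leaving out FIDch 2 alone. For the call of a single gene, the number of alternatives that kept or lost it leaves out adjusted p as the rule.

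Besides the 9 members, 13 lists were read: other myelin proteins, oligodendrocyte transcription factors, precursors, myelin lipid synthesis, iron handling, peripheral myelin, astrocyte, microglia, excitatory neuron, endothelial, choroid plexus, thalamus and striatum, of which 3 genes had no row. Members and lists were chosen with earlier results of these data known. The rule for named genes took all members, per list and comparison those with an adjusted p under 0.05 or otherwise the 2 with the lowest p at the criterion, and the 10 genes most like the members; of those without an adjusted p under 0.05, a part chosen after their values were seen is named. Ncmap and the male Ndrg1 values were added after their values were seen. A gene that the rule named is not reported here. Chromatin data of the study were not used here.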

Additional observations from a re-analysis of the deposited data

Results flagged for a closer look

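Male IS replicate 4 stood apart from the other 3 IS rats in 2 members. Its Mbp level was 3567 CPM against 3157 in the nearest rat, a gap of 0.85 of the group's range, and its Mag level was 254 CPM against 225, a gap of 0.901. Such gaps were found in 2 of 72 groups of 4 rats, where chance gives about 1 in 20. Without this rat, Mbp in male FID against IS was not called.

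The change with choline differed between iron backgrounds in males by 0.36 (log2) for Mbp, 0.25 for Mobp and 0.33 for Olig1, each at an unadjusted edgeR p under the criterion, with adjusted p-values of 0.145, 0.316 and 0.205. All 9 members had positive values for this difference, and 14.4% of all genes met the criterion.

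Males and females differed at the criterion in the change of Olig1 in ISch over IS (-0.25, edgeR adjusted p = 0.199), of Mal in FIDch over IS (0.37, adjusted p = 0.333) and of Mag in FIDch over FID (0.27, adjusted p = 0.219). In these comparisons 14.2%, 12.9% and 17.7% of all genes met the criterion, in the same order. Sex, batch and extraction kit cannot be told apart in these values.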

How the results depend on the processing

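The number of members at the criterion was recomputed under each alternative. With an adjusted p under 0.05 as the rule it was 0 in male FID against IS, ISch against IS, FIDch against FID and FIDch against ISch, in the male iron by choline difference, and in the batch differences of ISch over IS, FIDch over IS and FIDch over FID. Without TMM it was 2 in male FIDch against FID and 0 in the batch difference of FIDch over FID. In male FIDch against ISch it was 1 with DESeq2 and 1 with the 4 diets in one fit, which also gave 1 in female FIDch against IS. No share of all genes is given here for the fits without TMM, with DESeq2, with the 4 diets in one fit or with a replicate block. The counts of members in those fits therefore cannot be set against all genes. Without male ISch 1, ISch 2 and FIDch 2 it was 2 in male ISch against IS, 2 in FIDch against FID and 2 in the batch difference of FIDch over FID. Of all genes, 4.81%, 14.0% and 17.1% were called there. Of the 10 genes most like the members, 4 stayed when group means were not subtracted. Leaving out 1 library at a time gave 0 to 2 in male FID against IS, 0 to 3 in ISch against IS, 0 to 0 in FIDch against IS, 1 to 2 in FIDch against FID, 1 to 3 in FIDch against ISch and 2 to 4 in the iron by choline difference. The shares of all genes were 2.82% to 8.79%, 5.79% to 12.9% and 4.92% to 9.16% for FID, ISch and FIDch against IS. They were 9.19% to 14.2%, 5.54% to 11.6% and 10.1% to 18.2% for the others, in the same order. In females, leaving out 1 library gave 0 to 0 in FID against IS, 0 to 2 in ISch against IS and 0 to 1 in the other 4 comparisons. Of all genes, 5.82% to 6.99%, 8.74% to 14.0% and 3.92% to 13.9% were called, in the same order. For the batch differences it gave 0 to 3 in FID over IS, 0 to 3 in ISch over IS, 0 to 1 in FIDch over IS and 0 to 5 in FIDch over FID. The shares of all genes were 5.83% to 11.2%, 12.2% to 17.4%, 11% to 15.1% and 14.7% to 19.5%, in the same order. The causes were not tested. Replicate numbers did not pair the rats: deviations of same-numbered rats correlated at -0.142 to 0.205. With a replicate block the count was 1 in the batch difference of FID over IS (Mbp, -0.23) and 2 in the male iron by choline difference, where Mobp was lost. Over single members and alternatives, 2597 values kept their sign and their side of the criterion, 66 met it newly and 56 lost it. The other 179 changed sign and were called in neither fit. These counts include adjusted p as the rule. Male libraries held fewer counts than female ones, which limits Olig2 most, at 118 counts in the shallowest.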
